A study of Rattus norvegicus with 6 samples.

Results

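Voltage-gated calcium channels open when the membrane depolarises and let calcium enter the cell, and the alpha1 protein forms the pore and the voltage sensor. The 8 genes described here encode alpha1 proteins: Cacna1c and Cacna1d (the L-type channels of the Cav1 subfamily), Cacna1a (P/Q-type), Cacna1b (N-type) and Cacna1e (R-type) of the Cav2 subfamily, and Cacna1g, Cacna1h and Cacna1i (the T-type channels of the Cav3 subfamily). They were chosen by name from 14346 genes listed in at least 1 library. All 8 were listed in the files, 7 of them in every library, and Cacna1e was missing from sham replicate 2, where it was taken as 0. The family also holds Cacna1f and Cacna1s, which are known mainly from retina and skeletal muscle and are given below for comparison.

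The RNA came from rat dorsal root ganglia, which house the cell bodies of sensory neurons, and was taken on day 7 after surgery from 3 sham libraries and 3 libraries with partial sciatic nerve ligation (pSNL). The ligature ties off some of the nerve, so that the ganglion mixes the cell bodies of injured and of spared axons. The labels used here name the tissue, the operation and the day, and do not say which ganglia were pooled or whether each library is a separate animal. The p-values are set by how these libraries vary, and that variation may be in part technical.

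In sensory neurons the Cav2 channels sit at the terminals in the spinal cord, where calcium entry triggers transmitter release, and the N-type channel is the target of the pain drug ziconotide. T-type channels open at weaker depolarisation and set how easily a neuron fires, and the Cacna1h channel is known from fine touch afferents and from nociceptors. L-type channels are shared by neurons, muscle and endocrine cells and link calcium entry to gene expression. High-voltage-activated pores (Cav1 and Cav2) work with a beta and an alpha2delta subunit that bring them to the membrane.

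The libraries held 4310643 to 4416121 estimated counts, so that 1 CPM (a count scaled to library size) was 4.31 to 4.42 counts before scaling. Each of 6 injury genes used to check the group labels, among them Atf3 and Gap43, was higher in every pSNL library than in every sham library, with a summed level of 304 to 372 CPM in sham and 846 to 1599 CPM after pSNL. At an adjusted p under 0.05 edgeR called 3 of the 6 and DESeq2 all 6, against 0.46% and 2.89% of all tested genes. Atf3, at 12.5-fold, had an edgeR adjusted p of 0.0891, so a large change can miss this threshold here. The 17 pan-neuronal markers were all present and summed to 18881 to 21833 CPM in sham and 21537 to 22926 CPM in pSNL. Of these markers 2 (Tubb3 and Stmn2) were higher and 4 (Rbfox3, Snap25, Syp and Syn1) lower in every pSNL library than in every sham library, as 11.1% and 10.4% of all tested genes were. None of the 17 passed edgeR's test at an adjusted p under 0.05, these 6 did so before adjustment, and 4 (Snap25, Syp, Syn1 and Stmn2) passed in DESeq2. Sham replicate 3 stood apart: its 11 markers of central glia summed to 2320 CPM against 248 to 279 CPM in the other libraries, with Mobp, a myelin gene of the brain and spinal cord, at 519 CPM against 1.59 to 3.21 CPM. Markers of skeletal muscle were high in sham replicate 3 and pSNL replicate 3, where actin Acta1 stood at 192 and 368 CPM against 7.80 to 11.1 CPM elsewhere. Many results for the members are given with and without these libraries. Most results for other genes are given over all libraries only. Fewer cells of a type and less RNA per cell cannot be told apart in RNA from whole ganglia.

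Levels of different genes were compared on the FPKM scale, which divides by gene length. Cacna1b and Cacna1a carried most of the pore subunit RNA, with Cacna1h next. Cacna1b, the N-type pore, was at 12.5, 12.2 and 12.2 FPKM in sham replicates 1 to 3 and at 14.1, 16.4 and 13.4 FPKM in pSNL replicates 1 to 3. Cacna1a, the P/Q-type pore that shares presynaptic release with the N-type channel, was at 10.8, 12.0 and 10.8 FPKM in sham and 13.0, 12.0 and 9.13 FPKM in pSNL. Cacna1h was at 8.96, 7.96 and 6.94 FPKM in sham and 11.6, 10.2 and 6.54 FPKM in pSNL. These levels lie in the middle of the genes listed in a library: Cacna1b stood above 55.4% to 62.0% of them and Cacna1h above 41.9% to 54.1%.

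The L-type genes were lower. Cacna1c, the L-type pore also found in heart and smooth muscle, was at 3.32 ± 0.57 FPKM in sham and 4.62 ± 0.60 FPKM in pSNL (SD, n = 3 each), and Cacna1d at 1.56 ± 0.13 and 1.64 ± 0.16 FPKM. The remaining Cav2 and Cav3 genes were near the bottom of the range. Cacna1g was between 0.33 and 0.50 FPKM in 5 libraries and at 3.18 FPKM in sham replicate 3, Cacna1i between 0.17 and 0.72 FPKM, and Cacna1e between 0 and 0.22 FPKM. Cacna1f and Cacna1s, outside the 8, had 9 and 54 counts over all libraries.

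In sham the order was Cacna1b, Cacna1a, Cacna1h, Cacna1c, Cacna1d, Cacna1g, Cacna1i and Cacna1e. The per-library ranges of neighbours in this order overlapped only for Cacna1d with Cacna1g and for Cacna1g with Cacna1i. Without sham replicate 3, Cacna1g was at 0.33 and 0.36 FPKM and no longer reached Cacna1d, and Cacna1i, at 0.50 and 0.23 FPKM in the same libraries, was above it in one and below it in the other, so the order of Cacna1g and Cacna1i in sham rests on sham replicate 3. The order of the pSNL means was that of the sham means over all 3 libraries, with overlapping ranges for Cacna1a with Cacna1h, Cacna1g with Cacna1i and Cacna1i with Cacna1e. Cacna1b was above Cacna1a in each of the 6 libraries, by 1.01 times in sham replicate 2 and by 1.46 times in pSNL replicate 3. The per-length levels rest on the deposited gene lengths of 6709 to 9695 bases, which for each gene come from 1 or 2 transcripts, so splice forms of these genes are not told apart.

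**Figure D1:**
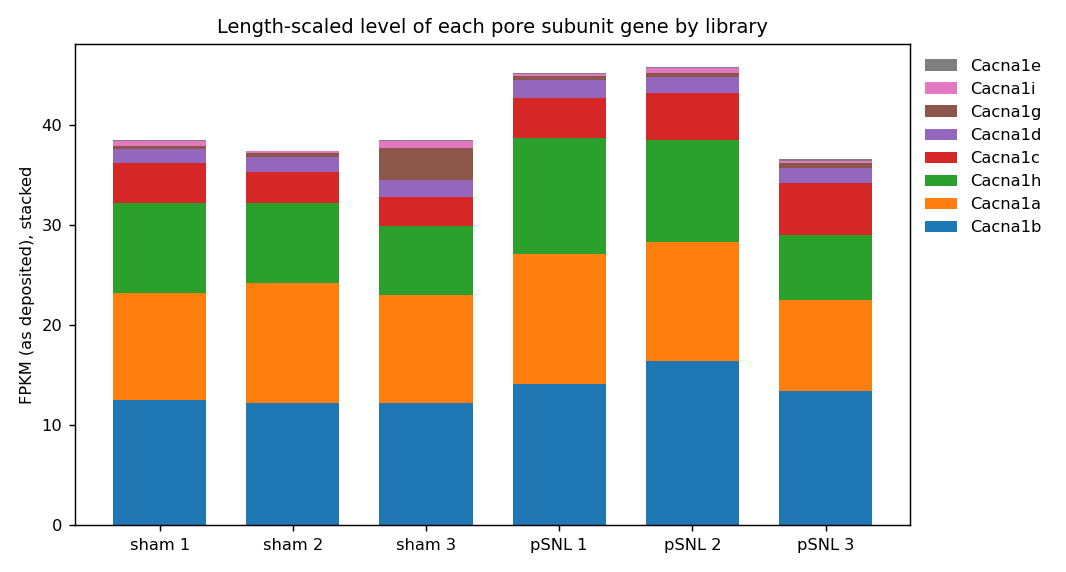
Stacked bars of the deposited FPKM value of each of the 8 pore subunit genes in each of the 6 libraries (x axis, library; y axis, FPKM from 0). Cacna1b, Cacna1a and Cacna1h make up most of each bar, the bars of pSNL replicates 1 and 2 are the tallest at 45.2 and 45.8 FPKM, and Cacna1g is visible mainly in sham replicate 3.

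Summed over the 8 genes, the level was 38.5, 37.4 and 38.5 FPKM in sham and 45.2, 45.8 and 36.6 FPKM in pSNL. The pSNL libraries lay on both sides of sham, with replicate 3 below every sham library. The Cav2 genes held 61.7 ± 2.60% of the sum in sham and 61.5 ± 1.09% in pSNL, the Cav3 genes 25.5 ± 2.64% and 23.6 ± 3.67%, and the Cav1 genes 12.8 ± 1.09% and 14.9 ± 2.93% (SD, n = 3 each). The exact two-sided permutation p for the Cav2, Cav3 and Cav1 shares was 0.9, 0.6 and 0.3 (adjusted p = 0.9 for each). With 3 against 3 libraries this p cannot go below 0.1, so no share could have passed 0.05. The highest Cav1 share, 18.3%, was that of pSNL replicate 3, and the other pSNL libraries were at 12.8% and 13.7%, inside the sham range of 11.9% to 14.0%. Without pSNL replicate 3 the difference in the Cav1 share went from 2.14 to 0.473 percentage points. It was 3.2 without pSNL replicate 1, 2.75 without pSNL replicate 2 and 1.71 to 2.75 without any one sham library. The summed level of the Cav1 genes was 5.4, 4.66 and 4.6 FPKM in sham and 5.8, 6.29 and 6.7 FPKM in pSNL. Every pSNL library was thus above every sham library in this sum, which was not tested. The nearest were sham replicate 1 at 5.4 and pSNL replicate 1 at 5.8 FPKM. Of all tested genes taken singly, on the CPM scale, 11.1% were higher and 10.4% lower in every pSNL library than in every sham library.

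Between pSNL and sham, none of the 7 members that passed the filter on low counts crossed the threshold of an adjusted p of 0.05 (edgeR quasi-likelihood test, Benjamini-Hochberg over 11091 tested genes), and DESeq2 called none either. Of all tested genes 0.46% crossed it in edgeR and 2.89% in DESeq2, so a count of 0 among 7 does not set these genes apart. At an unadjusted p under 0.05, 2 of the 7 were higher in pSNL (Cacna1c and Cacna1b) and none was lower, where 9.41% of all tested genes were higher and 6.07% lower. In DESeq2, Cacna1c and Cacna1g had an unadjusted p under 0.05 (0.0328 and 0.0301), the second with a negative fold change. Cacna1g was high in sham replicate 3 alone. The share of all genes under that DESeq2 threshold was not counted, so no background is given for these genes. The median log2 fold change of the 7 was 0.07 (range -1.54 to 0.47), and that of all tested genes -0.0024. Cacna1e was too low to be tested, so these counts do not cover it.

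**Figure D2:**
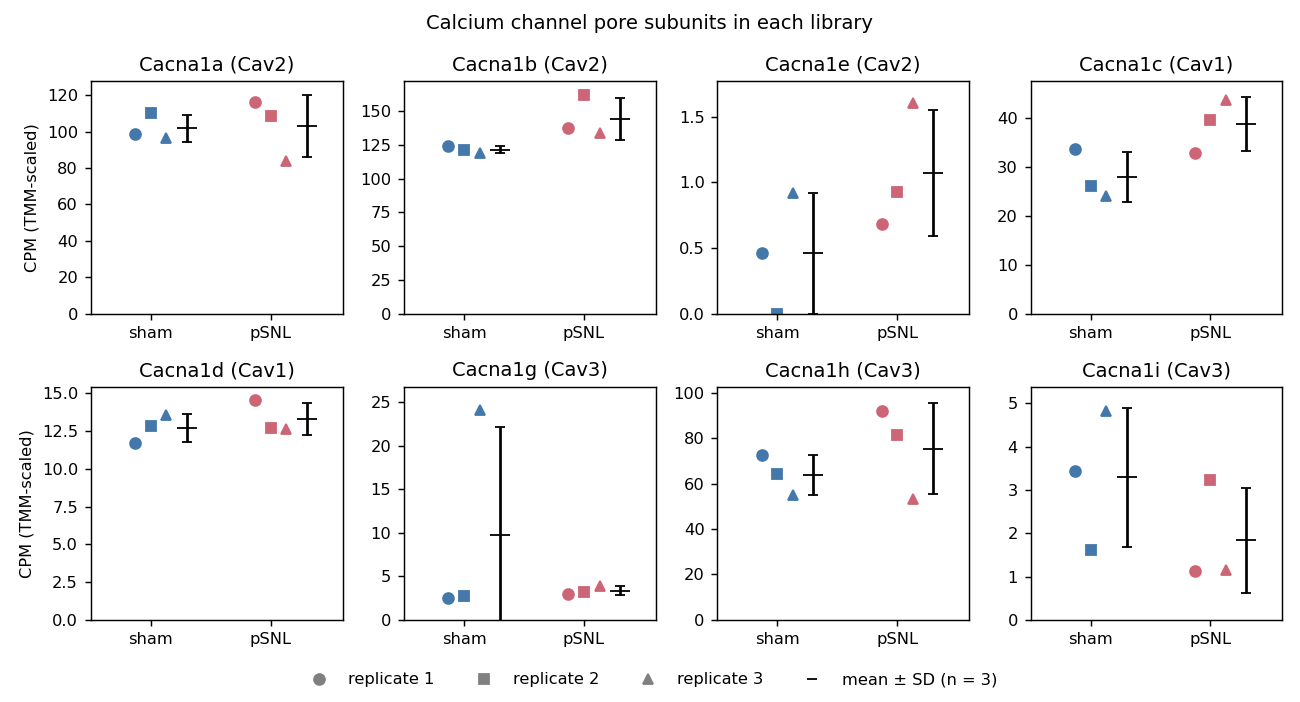
CPM on TMM-scaled library sizes (y axes, each from 0) of the 8 pore subunit genes in sham and pSNL libraries (x axes), with 1 symbol per library and the mean ± SD of 3 libraries in black, cut at 0 where the SD is larger than the mean. Cacna1b is the gene of the 8 whose groups do not overlap, and Cacna1g is high in sham replicate 3 alone.

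Of the Cav2 genes, Cacna1b (gene ID 257648) was at 124, 121 and 119 CPM in sham and 137, 162 and 133 CPM in pSNL. Every pSNL library was above every sham library, which held for 1 of the 7 tested members and for 11.1% of all tested genes (10.4% had all pSNL libraries below all sham libraries). The log2 fold change was 0.25 ± 0.10 (SE), or 1.19-fold with an unadjusted 95% interval of 1.02 to 1.38, and it did not pass the test (edgeR unadjusted p = 0.0281, adjusted p = 0.261). Without pSNL replicate 2, the highest library, the log2 value was 0.15 (unadjusted p = 0.126). It was 0.264, 0.242 and 0.228 without sham replicates 1, 2 and 3 (edgeR unadjusted p = 0.0541, 0.0739 and 0.0586). The unadjusted p under 0.05 of Cacna1b thus rests on each sham library and on pSNL replicate 2. Its log2 value was 0.286 and 0.297 without pSNL replicates 1 and 3 (edgeR unadjusted p = 0.0284 and 0.0190). DESeq2 over all libraries gave Cacna1b an unadjusted p of 0.0571. The sham libraries differed by a coefficient of variation of 2.15%, less than the 4.35% that counting alone gives on average at this depth. Cacna1a (gene ID 25398) was at 98.6, 110 and 96.5 CPM in sham and 116, 109 and 83.7 CPM in pSNL. Its groups overlapped, with pSNL replicates 1 and 3 the highest and the lowest of all 6 libraries. The log2 fold change was 0.02 ± 0.13 (edgeR adjusted p = 0.967), with an interval of 0.832- to 1.23-fold.

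Cacna1e (gene ID 54234), the R-type pore, had 2, 0 and 4 counts in sham and 3, 4 and 7 in pSNL. The 0 in sham replicate 2 allows up to 0.681 CPM (3 counts). Summed over libraries there were 6 and 14 counts, a ratio of 2.34 with an exact 95% counting interval of 0.844 to 7.42, which does not exclude equal levels. Without sham replicate 3 the counts were 2 and 14, a ratio of 4.71 (1.08 to 42.7), and without both replicate 3 libraries they were 2 and 7, a ratio of 3.55 with an interval that starts at 0.676, so whether the interval reaches equal levels rests on these libraries. This interval, like the others on counts given here, covers counting error only, and reads carry no molecular identifiers.

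Of the Cav1 genes, Cacna1c (gene ID 24239) was at 33.7, 26.2 and 24.1 CPM in sham and 32.9, 39.8 and 43.8 CPM in pSNL. The groups met at 1 point, since sham replicate 1 was above pSNL replicate 1, and the other pSNL libraries were above all sham libraries. The log2 fold change was 0.47 ± 0.16, or 1.39-fold (unadjusted 95% interval 1.08 to 1.78), the largest positive value among the tested members, and it did not pass the test (edgeR unadjusted p = 0.0160, adjusted p = 0.209). It was 0.372 without sham replicate 3 and 0.374 without pSNL replicate 3 (unadjusted p = 0.0556 and 0.0648), and it was 0.423 without sham replicate 2 (unadjusted p = 0.0574), so its unadjusted p under 0.05 rests on these 3 libraries. The value was 0.628 without sham replicate 1 and 0.582 without pSNL replicate 1 (edgeR unadjusted p = 0.00469 and 0.00758). Without pSNL replicate 2 it was 0.45 (edgeR unadjusted p = 0.0446). Cacna1c is also expressed in vascular smooth muscle. The 8 markers fixed for vascular smooth muscle and pericytes were all present. They summed to 166, 189 and 238 CPM in sham replicates 1 to 3 and to 235, 241 and 218 CPM in pSNL replicates 1 to 3. Des, one of them, was at 19.3 and 22.2 CPM in sham replicate 3 and pSNL replicate 3, where muscle markers were high, and at 4.82 to 7.79 CPM elsewhere. The part of these cells in the Cacna1c level was not tested. Cacna1d (gene ID 29716), the L-type pore that opens at the weaker depolarisation of the pair, was at 11.7, 12.9 and 13.6 CPM in sham and 14.5, 12.7 and 12.6 CPM in pSNL. The ranges of the groups overlapped in part, with pSNL replicate 1 the highest and sham replicate 1 the lowest library (log2 fold change 0.07 ± 0.18, edgeR adjusted p = 0.902).

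Of the Cav3 genes, Cacna1h (gene ID 114862) was at 72.4, 64.3 and 54.9 CPM in sham and 91.7, 81.4 and 53.0 CPM in pSNL. The first 2 pSNL libraries were above all sham libraries and pSNL replicate 3 was below them all. The log2 fold change was 0.24 ± 0.20, with an interval of 0.856- to 1.63-fold (edgeR adjusted p = 0.613). Without pSNL replicate 3 it was 0.435 (unadjusted p = 0.00973, adjusted p = 0.156), and without pSNL replicate 1 it was 0.0776. It was 0.136 without sham replicate 3 (edgeR unadjusted p = 0.546). The 8 markers fixed for low-threshold C-fibre and D-hair neurons, among which Cacna1h channels are known, had 6 genes with a count and summed to 472 to 529 CPM in sham and 422 to 499 CPM in pSNL. Cntnap2 and Piezo2 were not listed in any library. Most of the sum was Ntrk2, at 287 to 368 CPM in sham and 276 to 334 CPM in pSNL. Ntrk2 was also fixed as a marker of large myelinated neurons, so the sum is not particular to these cells. Of the low-threshold list 4 genes were tested, and edgeR gave none of them an unadjusted p under 0.05, nor did DESeq2 call any. Of 10 tested nociceptor markers, 1 was higher and 2 were lower at an edgeR unadjusted p under 0.05 (median log2 fold change -0.23). Of 13 tested markers of large myelinated neurons, 1 was higher and 5 were lower (median -0.22). Among all tested genes 9.41% were higher and 6.07% lower. DESeq2 called 1 and 4 genes of these lists, against 2.89% of all tested genes. How these markers bear on Cacna1h was not tested.

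Cacna1g (gene ID 29717), a T-type pore of thalamic and other central neurons, was at 2.52, 2.75 and 24.1 CPM in sham and 2.95, 3.24 and 3.90 CPM in pSNL. The level in sham replicate 3 was above all the others, and that is also the library with high central glia markers (2320 CPM against 248 to 279 CPM). On the log2 scale the fold change of -1.54 ± 1.00 over all libraries turned to 0.344 without sham replicate 3 (edgeR adjusted p = 0.527 and 0.741), so its direction rests on that library. On summed counts, 128 in sham and 44 in pSNL gave a ratio of 0.344 (95% counting interval 0.239 to 0.489), and 23 and 44 counts without sham replicate 3 gave 1.29 (0.761 to 2.23). Cacna1i (gene ID 56827), the third T-type pore, had 15, 7 and 21 counts in sham and 5, 14.0 and 5 in pSNL. Its highest library was again sham replicate 3, at 4.83 CPM, and the groups overlapped (log2 fold change -0.83 ± 0.54, edgeR adjusted p = 0.502). Its log2 value spanned -1.51 to -0.457 with 1 library left out, the former without pSNL replicate 2 and the latter without sham replicate 3. The summed counts of Cacna1i were 43 and 24, a ratio of 0.559 (95% counting interval 0.325 to 0.942), and 22 and 24 without sham replicate 3, a ratio of 0.734 (0.394 to 1.37).

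The skeletal muscle pore Cacna1s, outside the 8, had 1, 4 and 15 counts in sham and 1, 2 and 31 in pSNL, so that 46 of its 54 counts came from the replicate 3 libraries, in which the muscle markers were high. Without both of those libraries 5 and 3 counts remained (ratio 0.609, 95% counting interval 0.0946 to 3.13). Cacna1f had 4 and 5 counts in sham and pSNL. Neither gene passed the filter for testing.

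The 8 genes are long, and long genes as a class differed between libraries. Among 340 tested genes of at least 6709 bases and at least 5 CPM, the median log2 level relative to the average of the sham libraries was 0.15, 0.16 and -0.04 in pSNL replicates 1 to 3 and between -0.0016 and 0.0015 in the sham libraries. For all 10007 tested genes of at least 5 CPM it lay between -0.012 and 0.0076. Each gene was set against the average of the same sham libraries, which holds the sham values near 0. The sham values thus do not measure how far the sham libraries agree. The 340 long genes include members compared with them here. The same quantity for Cacna1a was 0.19, 0.10 and -0.28 in pSNL replicates 1 to 3 and for Cacna1h 0.53, 0.36 and -0.26, so both, like the long genes, were above 0 in replicates 1 and 2 and below it in replicate 3. Cacna1b, at 0.17, 0.41 and 0.14, was above 0 in all 3. Cacna1c was at 0.24, 0.51 and 0.65 and so highest in pSNL replicate 3. With the trend on gene length removed in each library, an alternative chosen after seeing the data, log2 fold changes moved from 0.25 to 0.118 for Cacna1b (edgeR unadjusted p = 0.196), from 0.47 to 0.358 for Cacna1c (unadjusted p = 0.0842) and from 0.24 to 0.102 for Cacna1h. Those of Cacna1a and Cacna1d turned negative, to -0.117 and -0.0566. None of these values passed the test before or after.

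**Figure D3:**
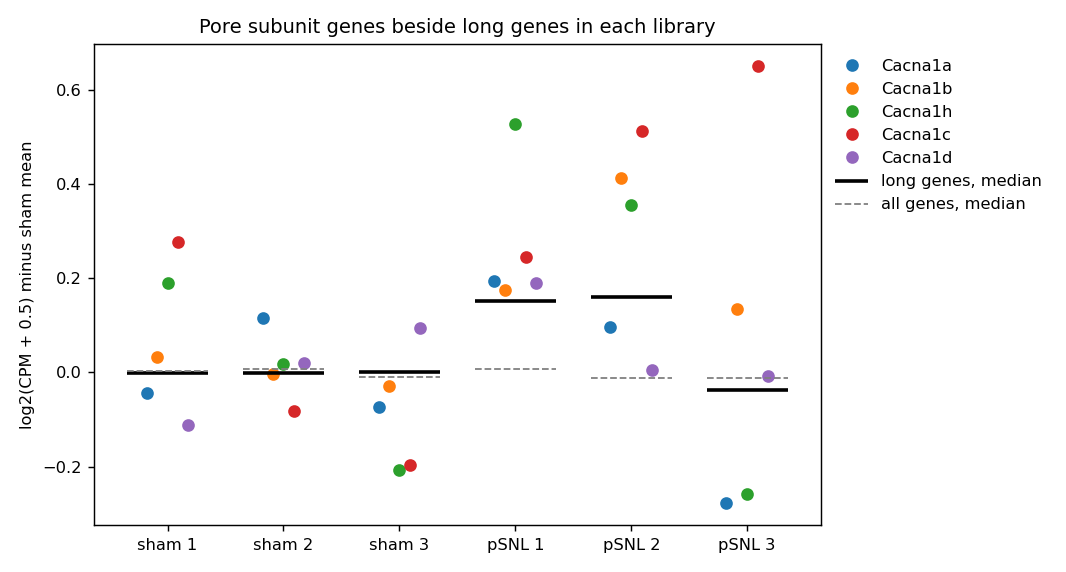
Log2(CPM + 0.5) minus the mean of the sham libraries (y axis) for the 5 members with the highest FPKM in pSNL (points), with the median over 340 long genes (black bars) and over all 10007 tested genes of at least 5 CPM (dashed grey bars), in each library (x axis). The long-gene median is 0.15 and 0.16 in pSNL replicates 1 and 2 and -0.04 in replicate 3, where Cacna1a and Cacna1h are below 0 and Cacna1c is at 0.65.

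The proximal promoter is shown for Cacna1b and Cacna1c, the members with the smallest unadjusted p. A RefSeq table of promoters on the assembly GRCr8 held 5 of the 8 genes (Cacna1a, Cacna1b, Cacna1c, Cacna1d and Cacna1e). The sequences below are the 250 bases before the annotated start, 5′ to 3′ on the gene's strand, with each CG dinucleotide, the site of DNA methylation, in capitals. Cacna1b lies at chr3:27944286-27944535 and Cacna1c at chr4:154051749-154051998, both on the minus strand.
Cacna1b: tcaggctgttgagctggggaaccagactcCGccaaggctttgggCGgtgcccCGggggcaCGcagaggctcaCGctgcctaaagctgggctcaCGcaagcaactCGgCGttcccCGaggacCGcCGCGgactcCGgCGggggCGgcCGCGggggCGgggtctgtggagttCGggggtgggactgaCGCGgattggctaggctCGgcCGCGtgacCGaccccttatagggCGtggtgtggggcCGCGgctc
Cacna1c: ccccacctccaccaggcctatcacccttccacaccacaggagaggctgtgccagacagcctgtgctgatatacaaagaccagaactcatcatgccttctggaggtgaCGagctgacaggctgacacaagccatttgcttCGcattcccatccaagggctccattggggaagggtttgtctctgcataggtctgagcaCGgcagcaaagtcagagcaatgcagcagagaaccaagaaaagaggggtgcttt
The Cacna1b stretch holds 28 CG dinucleotides and that of Cacna1c holds 3, against a median of 5 over 33469 promoters of this length; 6.79% of them hold at least 28 and 71.4% at least 3. The other members in the table held 34 (Cacna1a), 56 (Cacna1d) and 6 (Cacna1e). Cacna1d, with the most CG dinucleotides of these 5 genes, was below Cacna1c, with the fewest, in every library. Cacna1a and Cacna1b, with 34 and 28, had the highest mean FPKM in both groups, and Cacna1e, with 6, had the lowest. A relation between CG number and level was not tested. These files measure RNA, not methylation or binding, and which start these ganglia use was not measured.

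Patterns were compared by the root mean square difference of centred log2 CPM over the 6 libraries. The search covered 10893 other tested genes whose mean CPM was at least that of the lowest tested member. No background distance was measured, so how close a match is for so wide a search is not known. The patterns nearest to Cacna1b were those of Cnrip1 (0.0202), Ube2h (0.0221) and Mbtps1 (0.0382). Nearest to Cacna1c were Fpgs (0.0396), Ctla2a (0.0434) and Cndp1 (0.0478).

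The auxiliary subunits were described beside the pores, with no test of a difference between the sets. None of 12 tested alpha2delta, beta and gamma genes passed the test in edgeR (3 had an unadjusted p under 0.05, all higher, against 9.41% higher and 6.07% lower among all tested genes), and DESeq2 called 1, Cacna2d1, against 2.89% of all genes. Of all tested genes 0.46% passed in edgeR. The median log2 fold change of the 12 was 0.16 (range -0.41 to 2.29). Of the 12, 3 (Cacna2d1, Cacnb1 and Cacng4) were higher and 1 (Cacna2d3) lower in every pSNL library than in every sham library. Of all tested genes 11.1% and 10.4% were. Cacna2d1, the alpha2delta-1 subunit that gabapentin binds, was at 5.50, 10.6 and 10.3 CPM in sham and 21.8, 69.4 and 38.5 CPM in pSNL (log2 fold change 2.29 ± 0.51, edgeR adjusted p = 0.127, DESeq2 adjusted p = 5.97e-07). Every pSNL library was above every sham library, and the value lies far above the 0.47 of Cacna1c, the highest of the pores. Cacna2d3 was at 94.4, 98.2 and 95.1 CPM and 92.9, 82.5 and 71.8 CPM, lower in each pSNL library (edgeR adjusted p = 0.370), and Cacna2d2 overlapped between groups (adjusted p = 0.528).

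Among the beta subunits, cytoplasmic partners of the Cav1 and Cav2 pores, Cacnb3 had the highest per-length level, at 173 FPKM in sham and 176 FPKM in pSNL on average, against 12.3 FPKM for Cacna1b in sham. Its log2 fold change was 0.02 ± 0.12 (edgeR adjusted p = 0.948). Cacnb1 was at 82.5, 84.0 and 73.3 CPM in sham and 98.8, 128 and 97.9 CPM in pSNL. These groups did not overlap, and the log2 fold change of 0.44 ± 0.12 did not pass the test (unadjusted p = 0.00513, adjusted p = 0.132). Cacnb2 and Cacnb4 were at a few CPM, with log2 fold changes of -0.41 ± 0.43 and 0.23 ± 0.32. Of the gamma genes, most of which are known as partners of AMPA receptors, Cacng4 had log2 fold change 0.47 ± 0.18 with groups that did not overlap (edgeR unadjusted p = 0.0279, adjusted p = 0.260), and Cacng2, Cacng3, Cacng5 and Cacng7 overlapped between groups, with values from -0.15 to 0.37.

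**Figure D4:**
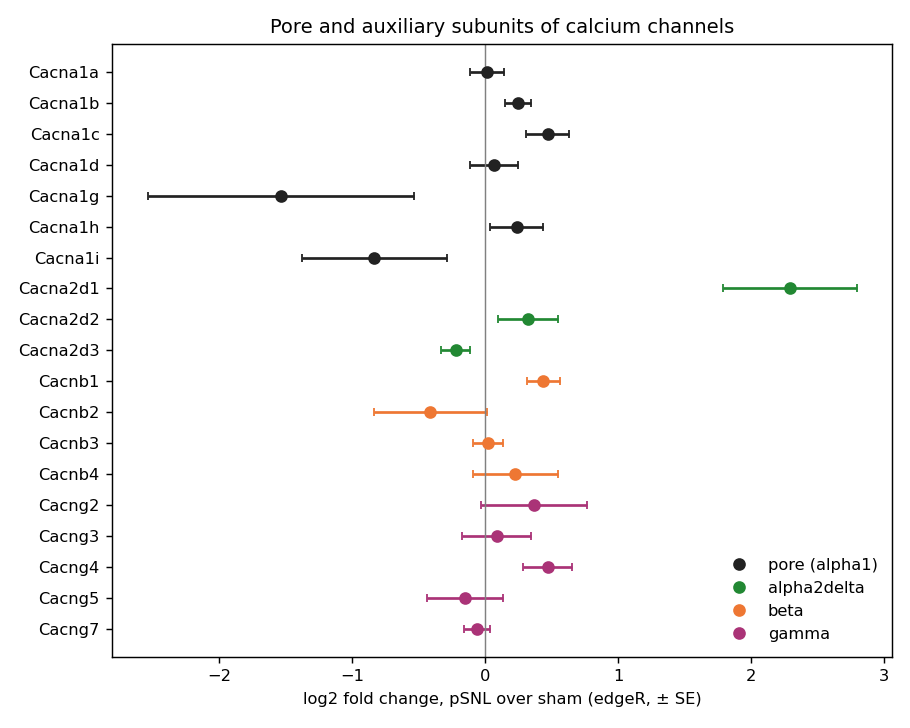
Log2 fold change of pSNL over sham with its standard error (x axis, edgeR fit over 3 and 3 libraries) for the 7 tested pore subunit genes and the 12 tested auxiliary subunit genes (y axis), coloured by kind of subunit. Most values lie within 0.5 of 0; Cacna2d1 stands at 2.29, Cacna1i at -0.83, and Cacna1g at -1.54 with the widest bar.

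Of the other genes that bear on these channels, none of 46 tested passed the test in edgeR, where 0.46% of all tested genes did. Among 4 RGK GTPases, which bind beta subunits and hold back high-voltage-activated currents, Rrad was at 0.688, 1.84 and 2.07 CPM in sham and 3.63, 6.01 and 9.17 CPM in pSNL (log2 fold change 2.01 ± 0.48, edgeR adjusted p = 0.0891, DESeq2 adjusted p = 0.0471), and the other 3, Gem, Rem1 and Rem2, overlapped between groups. Of 23 tested channel-binding and regulatory proteins, 1 was higher and 3 were lower at an unadjusted p under 0.05 (9.41% and 6.07% of all tested genes), and their median on the log2 scale was 0.01. The calmodulin-like Cabp1 was at 224 ± 8.12 and 180 ± 23.3 CPM (sham and pSNL), and Klhl1, an actin-binding partner of P/Q- and T-type pores, at 5.66 ± 4.45 and 1.99 ± 0.27 CPM (edgeR adjusted p = 0.186 and 0.239). Calm3, a calmodulin gene, had a log2 fold change of -0.20 ± 0.08 (adjusted p = 0.256). Klhl1 was at 10.8 CPM in sham replicate 3 and at 2.98 and 3.21 CPM in the other sham libraries. Of 19 tested genes of calcium entry, release and extrusion, 4 were higher and 1 lower at an unadjusted p under 0.05 (again beside 9.41% and 6.07% of all tested genes), with a median of -0.03. The inositol trisphosphate receptor Itpr3 had a log2 fold change of 0.58 ± 0.12, the plasma membrane calcium pump Atp2b4 of 3.18 ± 0.65 and the store-operated channel subunit Orai2 of -0.37 ± 0.13 (edgeR adjusted p = 0.0787, 0.0823 and 0.217). DESeq2 called the first 2, and it called 2.89% of all tested genes.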

How the data were processed

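RNA of 6 rat dorsal root ganglion libraries (3 sham, 3 pSNL, grouped by sample title) was quantified per gene by the authors, and each deposited file holds expected counts, FPKM and a gene length, per the file headers. The authors' FPKM values, scaled to gene length and depth as the unit implies, are used here as deposited. CASAVA 1.4 and Bowtie2 appear in the submitters' processing notes; the quantifier, build and strand setting were not given in the sources used here. The deposited expected counts (89.1% to 89.5% whole) were rounded here. Gene IDs were matched to symbols in a RefSeq table (GRCr8), 14227 by ID and 16 by transcript accession.

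edgeR 4.0.16 (R 4.3.3) was run on all genes with its default filter, TMM factors, a robust quasi-likelihood fit and Benjamini-Hochberg adjustment. The code was tried on simulated counts with the same spread for every gene. That trial does not give the power for genes that vary more here, such as Cacna1g. SE values were derived from the test statistic and intervals from its degrees of freedom. DESeq2 1.42.0 and other scalings, filters and left-out libraries were tried. Counting intervals are exact at 95%. The named genes were all 8 members, the other subunits, up to 3 genes with the smallest p in other lists and the nearest patterns. Members, lists and tests were chosen with earlier results of these data known.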

Additional observations from a re-analysis of the deposited data

How the results depend on the processing

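No alternative of the 13 run called any of the 7 tested members (edgeR or DESeq2, lowest adjusted p = 0.138, for Cacna1c without pSNL replicate 1). Cacna1b, Cacna1c and Cacna1h stayed positive and Cacna1i negative in all 13. The log2 fold change of Cacna1a turned to -0.025 with libraries scaled to pan-neuronal genes and to -0.117 with the gene length trend removed, and spanned -0.076 to 0.141 with 1 library left out. Cacna1d turned to -0.0566 with the length trend removed, where fitted length effects are subtracted by construction. Cacna1g spanned -1.99 to 0.344 with 1 library left out. The difference in the Cav2 share (-0.26 percentage points) was 0.119 with 1 FPKM added and spanned -1.16 to 1.23 with 1 library left out, and that in the Cav3 share (-1.88) spanned -3.57 to 0.07; the cause was not tested.

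Calls among all tested genes numbered 51, and 332 with DESeq2, 89 with no filter on low counts, 100 scaled to pan-neuronal genes and 5 to 217 with 1 library left out. The 58 other channel genes had 0 calls, and 4 with DESeq2 (Atp2b4, Cacna2d1, Itpr3 and Rrad), 1 scaled to pan-neuronal genes (Atp2b4) and 0 to 3 with 1 library left out. With the replicate number as a block, all genes had 111 calls, the other channel genes 2 (Atp2b4 and Cacna2d1) and the members 0. The labels do not say that the numbers pair the libraries, and same-numbered libraries deviated together with correlations of 0.0318, 0.0107 and 0.123, so the numbers were not taken to pair the libraries, although both replicate 3 libraries had high muscle markers; not every library correlated best with its own number. Genes of a few CPM, here Cacna1e, Cacna1g and Cacna1i, are limited by depth.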
